A study of Homo sapiens with 10 samples.

Results

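The BCL2 family sets whether a stressed cell opens its mitochondrial outer membrane and dies by apoptosis. Described here are 10 of its genes, found by their symbols among the 58735 genes of the deposited count table, each as 1 protein-coding gene. They are 6 BH3-only genes (BMF, BCL2L11, BBC3, PMAIP1, BID and BAD), the 2 pore-forming effectors (BAX and BAK1) and 2 antiapoptotic genes (BCL2L1 and MCL1). All 10 had enough counts to be tested. Their RNA was sequenced after poly(A) selection in the human meningioma line CH157-MN. There were 5 libraries of cells exposed to a humanised antibody-drug conjugate (ADC) at 100 nM and 5 libraries of cells given phosphate-buffered saline (PBS). The conjugate couples an antibody against the somatostatin receptor SSTR2 to monomethyl auristatin F (MMAF), which blocks tubulin polymerisation, and treated cells were harvested 3 days later. The harvest time of the PBS cells is not given in the sources used here. The labels name no unconjugated antibody or free payload group, so effects of antibody and payload cannot be told apart.

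In healthy cells BCL-XL (BCL2L1) and MCL1 hold BAX and BAK in check. BH3-only proteins answer specific stresses: they occupy the groove of the antiapoptotic proteins, and some also bind BAX and BAK directly. BIM (BCL2L11) and BMF are known to be held on the cytoskeleton, BIM through a dynein light chain of microtubule motors and BMF through a light chain of myosin V motors, and drugs that disturb microtubules are known to act on cells partly through this family. Much of that control lies in protein binding, phosphorylation and degradation, which RNA counts do not measure.

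Total counts ranged from 28638057 to 36463724 in ADC libraries and from 28262162 to 34473795 in PBS libraries. Levels are given as CPM, the count relative to the library total scaled by a TMM factor. Log2 fold changes set ADC against PBS libraries, so positive values are higher after the conjugate, and carry a standard error (SE) and an adjusted p from edgeR's quasi-likelihood test over 14504 genes. The labels do not say that replicates were separate cultures, so the p-values measure the spread between these libraries, which may be technical. In bulk RNA, fewer cells with a transcript and less transcript per cell cannot be told apart. The 9 meningioma markers summed to 3648 to 3789 CPM in ADC and 3441 to 3725 CPM in PBS libraries, nearly all of it VIM. Of these markers 1 was called, the cadherin gene CDH2, which was lower (log2 fold change -0.12, SE 0.04, adjusted p = 0.017). The meningeal markers PGR, PTGDS and DSP had 0 to 1 counts in ADC and 0 to 4 counts in PBS libraries. The antibody target gene SSTR2 was low, with 10 to 20 counts in ADC and 3 to 22 in PBS libraries. Blood cell markers, 10 of 19 at 0 in every library, summed to 2.05 to 3.08 CPM in ADC and 0.647 to 2.64 CPM in PBS libraries. The 8 endothelial markers summed to 12.8 to 14.4 CPM in ADC and 10 to 11.5 CPM in PBS libraries. Most of it was TIE1, which averaged 9.43 CPM in ADC and 8.26 CPM in PBS libraries. PECAM1 was called higher, while TIE1, VWF and KDR were tested and not called. CDH5 had 2 to 7 counts in ADC and 0 in PBS libraries, and EMCN was at 0 throughout. Epithelial markers, 2 of 8 at 0 in every library, summed to 0.687 to 1.64 CPM in ADC and 0.385 to 1.07 CPM in PBS libraries. The part of these markers in the results was not tested.

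Among the members, BMF rose about 5-fold after the conjugate, PMAIP1 rose by a small amount and BAK1 fell by a small amount. The other 7 did not pass the test. Thus 3 of 10 members were called, where 20.8% of all tested genes were called, and the count is read against that share. By direction, 2 members were higher and 1 was lower, beside 10.8% of tested genes called higher and 10% called lower. Of all calls 51.8% were higher, and 63.3% with scaling to library size alone, which moved the median of all genes by 0.02. The median absolute log2 fold change was 0.07 over the 10 members and 0.12 over all tested genes. The groups did not overlap for 2 members, BMF and PMAIP1, both higher in ADC libraries. Over tested genes the groups did not overlap for 14.2%, higher for 7.29% and lower for 6.95%.

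**Figure D1:**
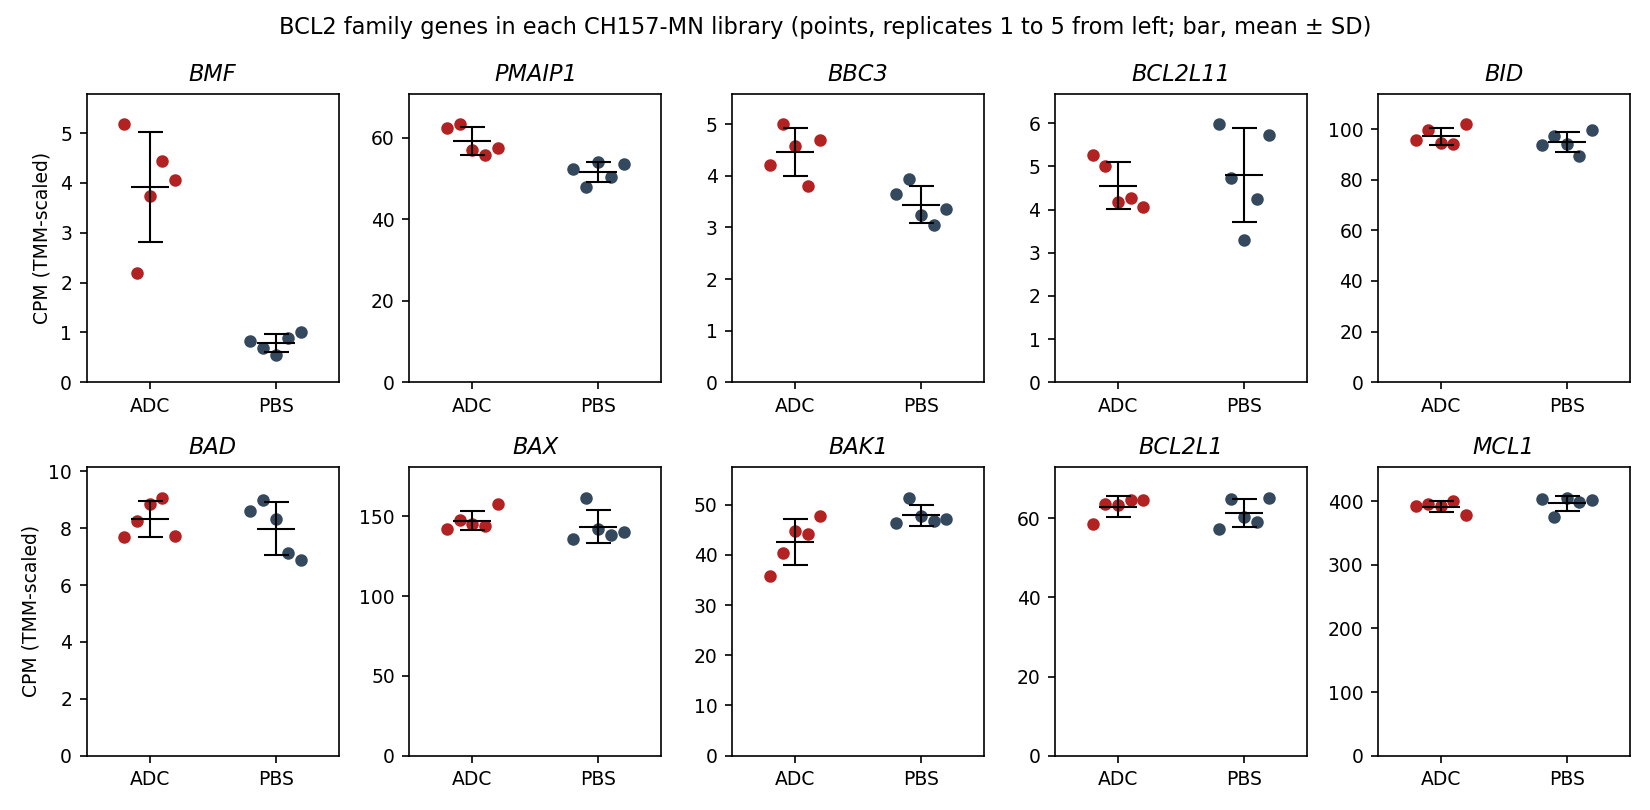
Level of each of the 10 genes in CPM (vertical axes, from 0) in the 5 ADC and 5 PBS libraries; points are libraries in replicate order and bars are means ± SD. BMF lies between 2.18 and 5.17 CPM in ADC and between 0.545 and 1.0 CPM in PBS libraries, while most other members share a range.

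BMF encodes a BH3-only protein that binds antiapoptotic family members, and it showed the one large change of the family. It had 5.17, 2.18, 3.74, 4.43 and 4.06 CPM in ADC replicates 1 to 5, against 0.832, 0.681, 0.545, 0.883 and 1.0 CPM in PBS replicates 1 to 5. Every ADC library was above every PBS library, and ADC replicate 2 was the lowest of its group. The log2 fold change was 2.30 (SE 0.24, 95% interval 1.81 to 2.80, adjusted p = 1.9e-08), or 4.93-fold. Among 14504 tested genes this was the 13th largest increase by fold, and by edgeR p-value in either direction BMF ranked 107th.

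The underlying numbers were small. BMF had 80 to 179 counts per ADC library and 16 to 34 counts per PBS library. For the closest libraries, exact Poisson 95% intervals were taken with each count as a separate fragment. The 80 counts of ADC replicate 2 give 1.73 to 2.72 CPM and the 34 counts of PBS replicate 5 give 0.693 to 1.40 CPM, without overlap. Such intervals cover counting error only. Even numbers made up 65.4% to 67.3% of counts of 2 to 21 per library, as may arise when fragments are counted more than once. The intervals are then too narrow, and whether wider ones would stay apart was not tested. Over all 18 alternative settings the log2 fold change of BMF lay between 2.18 and 2.46, with an adjusted p of at most 5.9e-06, the lowest value being without ADC replicate 1 and the highest without ADC replicate 2.

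On hg38, BMF (ENSG00000104081) lies on the minus strand of chromosome 15 from 40087890 to 40108892. The deposited counts are per gene, so no isoform or UTR is singled out. An antisense gene, BMF-AS1, covers 8.5% of its exonic bases and had 0 counts in all 10 libraries. None of the nearest tested neighbours was called: their log2 fold changes were 0.10 (SE 0.04) for SRP14, 0.04 (SE 0.15) for SRP14-AS1, 0.02 (SE 0.04) for BUB1B and 0.14 (SE 0.10) for PLCB2. These genes lie 48.7, 20.6, 52.1 and 169.3 kb from BMF.

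PMAIP1, which encodes NOXA, a BH3-only protein that binds MCL1 above all, was the other member that rose. It had 62.4, 63.3, 57.1, 55.9 and 57.6 CPM in ADC replicates 1 to 5, against 52.3, 48.0, 54.1, 50.4 and 53.5 CPM in PBS replicates 1 to 5. The groups were close but did not overlap. This was a log2 fold change of 0.20 (SE 0.05, 95% interval 0.10 to 0.30, adjusted p = 0.0039), a rise of 14.8%. It kept its call in all 18 alternative settings, with adjusted p from 0.00095 to 0.018. PMAIP1 (ENSG00000141682, plus strand of chromosome 18, from 59899948 to 59904306) shares no exonic base with another annotated gene.

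BAK1, which encodes the effector BAK on the mitochondrial outer membrane, was lower after the conjugate. It had 35.7, 40.4, 44.8, 44.2 and 47.7 CPM in ADC replicates 1 to 5, against 46.3, 51.3, 47.7, 46.6 and 47.2 CPM in PBS replicates 1 to 5. ADC replicates 1 and 2 were lowest, and ADC replicate 5 lay inside the PBS values. Its log2 fold change was -0.17 (SE 0.06, 95% interval -0.29 to -0.05, adjusted p = 0.045), a decrease of 11.1%. The call was lost when any 1 of 8 libraries was left out (ADC replicates 1, 2 and 4 and each PBS replicate), at adjusted p of 0.053 to 0.18, and with scaling to library size alone, at adjusted p = 0.083. BAK1 had 1236 to 1534 counts in ADC and 1320 to 1733 counts in PBS libraries. Of its 2 pseudogenes in the table, BAK1P1 had 6 to 27 counts in ADC and 16 to 32 counts in PBS libraries and BAK1P2 had 0, and how reads shared with such copies were assigned is not given in the sources used here. BAK1 (ENSG00000030110) lies on the minus strand of chromosome 6 from 33572547 to 33580293.

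**Figure D2:**
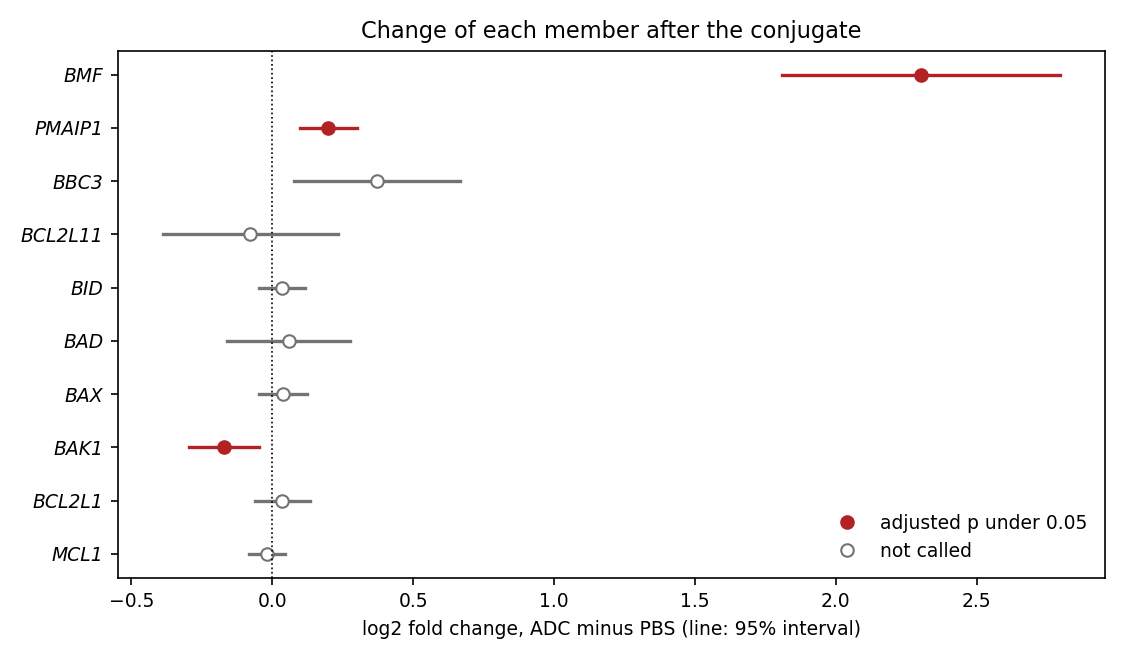
Log2 fold change of each member, ADC minus PBS (horizontal axis), with its 95% interval from the edgeR fit; filled points passed an adjusted p of 0.05. BMF stands at 2.30, and the intervals of the other 9 genes lie between -0.39 and 0.67.

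The bases before the transcription start of the 3 called genes are shown because these are the members whose RNA differed. They are the 250 bases upstream of each RefSeq start (GRCh38.p14), written 5′ to 3′, with the motifs searched in capitals. BMF has 2 annotated starts, which the gene counts do not tell apart.
BMF outer start (chr15:40108880-40109129, minus strand): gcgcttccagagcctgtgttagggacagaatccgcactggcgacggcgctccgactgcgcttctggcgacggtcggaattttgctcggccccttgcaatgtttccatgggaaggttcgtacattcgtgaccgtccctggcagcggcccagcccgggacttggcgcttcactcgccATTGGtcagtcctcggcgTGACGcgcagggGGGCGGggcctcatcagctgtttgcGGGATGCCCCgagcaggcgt
BMF inner start (chr15:40106967-40107216, minus strand): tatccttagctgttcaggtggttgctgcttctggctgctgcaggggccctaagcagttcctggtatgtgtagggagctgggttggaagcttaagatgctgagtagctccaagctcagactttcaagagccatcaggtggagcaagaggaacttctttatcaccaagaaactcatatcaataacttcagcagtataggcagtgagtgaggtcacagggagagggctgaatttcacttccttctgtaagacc
PMAIP1 (chr18:59899746-59899995, plus strand): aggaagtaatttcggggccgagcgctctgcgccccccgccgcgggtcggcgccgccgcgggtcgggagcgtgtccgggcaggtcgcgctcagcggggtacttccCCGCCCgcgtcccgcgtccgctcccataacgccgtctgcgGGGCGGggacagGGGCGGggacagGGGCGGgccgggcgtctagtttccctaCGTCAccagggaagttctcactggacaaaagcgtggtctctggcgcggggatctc
BAK1 (chr6:33580277-33580526, minus strand): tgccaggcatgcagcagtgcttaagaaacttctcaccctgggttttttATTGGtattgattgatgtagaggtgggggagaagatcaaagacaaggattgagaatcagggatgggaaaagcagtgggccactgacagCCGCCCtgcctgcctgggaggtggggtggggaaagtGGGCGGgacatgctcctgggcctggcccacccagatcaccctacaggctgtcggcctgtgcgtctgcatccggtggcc
The search, on both strands, covered the SP1 GC box as GGGCGG, the CCAAT box, the TATA box as TATAAA, the FOXO motif as GTAAACA, the AP-1 motif as TGANTCA, the E-box as CACGTG, the core of the cAMP response element as TGACG, the ATF4 motif as TGATGNAA, and the NF-kB consensus by name. The outer BMF promoter held 1 CCAAT motif from position -75 to -71, 1 TGACG from -57 to -53, 1 GGGCGG from -45 to -40 and 1 match to the NF-kB consensus from -20 to -11, counted from the start. The inner one held none of these motifs. The PMAIP1 promoter held GGGCGG at 4 places and TGACG at 1, and that of BAK1 held GGGCGG at 2 places and CCAAT at 1. No match overlapped another in these promoters. Over 35116 promoter windows of the same length, 42.6% held GGGCGG, 32.0% CCAAT, 21.2% TGACG, 10.7% TATAAA, 10% the NF-kB consensus, 6.6% TGANTCA, 6.3% CACGTG, 3.1% TGATGNAA and 3.0% GTAAACA. A match is a run of letters and was not shown to be a bound site. RefSeq promoter entries matched 9 of the 10 members, all but MCL1.

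BBC3, which encodes PUMA, a BH3-only protein able to bind every antiapoptotic member, missed the threshold. It had 4.22, 5.0, 4.59, 3.81 and 4.69 CPM in ADC replicates 1 to 5, against 3.65, 3.94, 3.23, 3.04 and 3.35 CPM in PBS replicates 1 to 5. Of the ADC libraries, replicate 4 lay inside the PBS values, below PBS replicate 2, and the other 4 lay above them. The log2 fold change was 0.37 (SE 0.14, adjusted p = 0.066), and its 95% interval reached from 0.08 to 0.67. It passed in 4 of 18 alternatives: with DESeq2 (adjusted p = 0.047), with scaling to library size alone (0.049), without ADC replicate 4 (0.048) and without PBS replicate 2 (0.047). BBC3 had 111 to 183 counts in ADC and 86 to 133 counts in PBS libraries. With each count taken as a separate fragment, counting error alone comes to 8.27% per ADC library and 9.53% per PBS library. The spread between libraries was 10.3% in each group. Counting error is larger if fragments were counted more than once, so whether the spread exceeds it is not shown.

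BCL2L11 encodes BIM, the BH3-only protein tied to microtubule motors. It had 5.26, 5.0, 4.18, 4.26 and 4.06 CPM in ADC replicates 1 to 5, against 5.97, 4.74, 3.30, 4.24 and 5.74 CPM in PBS replicates 1 to 5. The ADC values all fell inside the PBS range, which was the wider. The log2 fold change was -0.08 (SE 0.15, adjusted p = 0.78), with a 95% interval from -0.39 to 0.23. Its direction turned without PBS replicate 1, at 0.01. The long noncoding gene MIR4435-2HG runs over 10.9% of its exonic bases on the other strand and had 2063 to 2492 counts in ADC and 2041 to 2426 in PBS libraries, far more than the 116 to 183 counts in ADC and 97 to 201 counts in PBS libraries of BCL2L11. The strand setting of the counting is not given in the sources used here, so reads of that stretch cannot be told apart.

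BID and BAD, the other BH3-only members, differed little. BID, which caspase-8 cleaves to carry a death receptor signal to mitochondria, had 95.8, 99.5, 94.6, 94.2 and 102 CPM in ADC replicates 1 to 5, against 93.8, 97.4, 94.2, 89.4 and 99.5 CPM in PBS replicates 1 to 5. The groups overlapped, and the log2 fold change was 0.03 (SE 0.04, 95% interval -0.05 to 0.12, adjusted p = 0.60). BAD, which growth factor kinases hold inactive by phosphorylation, averaged 8.32 ± 0.63 CPM in ADC and 7.98 ± 0.93 CPM in PBS libraries (SD, n = 5 each). Its log2 fold change was 0.06 (SE 0.11, 95% interval -0.16 to 0.28, adjusted p = 0.76), and 23.7% of its exonic bases overlap GPR137 on the other strand. BAD had 221 to 303 counts in ADC and 202 to 304 in PBS libraries, and GPR137 had 440 to 689 in ADC and 426 to 568 in PBS libraries.

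The effector BAX, a mostly cytosolic protein that moves to mitochondria when activated, had 142, 148, 145, 144 and 158 CPM in ADC replicates 1 to 5, against 136, 161, 142, 138 and 140 CPM in PBS replicates 1 to 5. PBS replicate 2 was the highest of all 10 libraries. BAX had a log2 fold change of 0.04 (SE 0.04, 95% interval -0.05 to 0.12, adjusted p = 0.59).

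The antiapoptotic members were nearly level between the groups. MCL1, a short-lived protein that is degraded when mitosis is prolonged, had 393, 395, 392, 400 and 378 CPM in ADC replicates 1 to 5, against 404, 376, 405, 398 and 401 CPM in PBS replicates 1 to 5. The log2 fold change was -0.02 (SE 0.03, adjusted p = 0.72), with a 95% interval from -0.08 to 0.04, and with scaling to library size alone it was 0.0033. BCL2L1, the gene of BCL-XL, had 58.5, 63.5, 63.3, 64.7 and 64.8 CPM in ADC replicates 1 to 5, against 57.3, 65.0, 60.4, 59.0 and 65.2 CPM in PBS replicates 1 to 5. The groups overlapped, with a log2 fold change of 0.04 (SE 0.05, 95% interval -0.06 to 0.13, adjusted p = 0.65). An antisense gene, ABALON, covers 43.0% of its exonic bases and had 44 to 52 counts in ADC and 22 to 69 counts in PBS libraries, against 1849 to 2326 counts of BCL2L1 in ADC and 1671 to 2215 in PBS libraries. Neither antiapoptotic gene was called by edgeR, DESeq2 or limma-voom, and neither had an unadjusted p under 0.05 in edgeR.

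On hg38 the uncalled members lie as follows. BBC3 (ENSG00000105327) lies on the minus strand of chromosome 19 from 47220822 to 47232766, and BAX (ENSG00000087088) on the plus strand of chromosome 19 from 48954815 to 48961798. BCL2L11 (ENSG00000153094) lies on the plus strand of chromosome 2 from 111119378 to 111168447. BID (ENSG00000015475) lies on the minus strand of chromosome 22 from 17734138 to 17774770, and BAD (ENSG00000002330) on the minus strand of chromosome 11 from 64269830 to 64284704. BCL2L1 (ENSG00000171552) lies on the minus strand of chromosome 20 from 31664452 to 31723989, and MCL1 (ENSG00000143384) on the minus strand of chromosome 1 from 150574551 to 150579738.

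Levels of different genes were compared per kb of gene length. That length counts every annotated exon base of a gene: 2235 for PMAIP1 over 3 transcripts and 4446 for BID over 15. Which transcripts were expressed was not measured, so the order, the shares, the role sums and the sizes of ratios between genes depend on it. By CPM alone BID (97.2 in ADC, 94.8 in PBS) lay above PMAIP1 (59.3 in ADC, 51.7 in PBS). MCL1 was the most abundant member in both groups, at 89.6 ± 1.9 CPM per kb in ADC and 90.8 ± 2.8 CPM per kb in PBS libraries (SD, n = 5 each). BAX followed at 56.9 in ADC and 55.5 in PBS libraries, and PMAIP1 at 26.5 in ADC and 23.1 in PBS libraries. In ADC libraries PMAIP1 lay above BID with no overlap, whereas in PBS libraries its values overlapped those of BAK1, the next gene in order. BID, BAK1 and BCL2L1 lay between 19.0 and 21.9 CPM per kb in ADC libraries and between 18.5 and 21.6 in PBS libraries. In the order of levels the neighbours BID and BAK1 overlapped in both groups, BAK1 and BCL2L1 overlapped in ADC libraries, and BID and BCL2L1 were apart in PBS libraries.

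The 4 least abundant members were BH3-only genes. BAD stood at 4.87 CPM per kb in ADC and 4.67 in PBS libraries, and BBC3 at 1.40 in ADC and 1.08 in PBS libraries, each apart from its neighbours in the order. BMF was the lowest member in PBS libraries and apart from all others. Its level was 0.719 ± 0.203 CPM per kb in ADC and 0.145 ± 0.033 CPM per kb in PBS libraries. In ADC libraries its values overlapped those of BCL2L11, which stood at 0.684 ± 0.081 in ADC and 0.721 ± 0.165 CPM per kb in PBS libraries. Even after its rise, BMF made up 0.299% of the summed per-length level of the 10 members in ADC libraries, against 0.0609% in PBS libraries, while MCL1 made up 37.2% in ADC and 38.2% in PBS libraries.

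**Figure D3:**
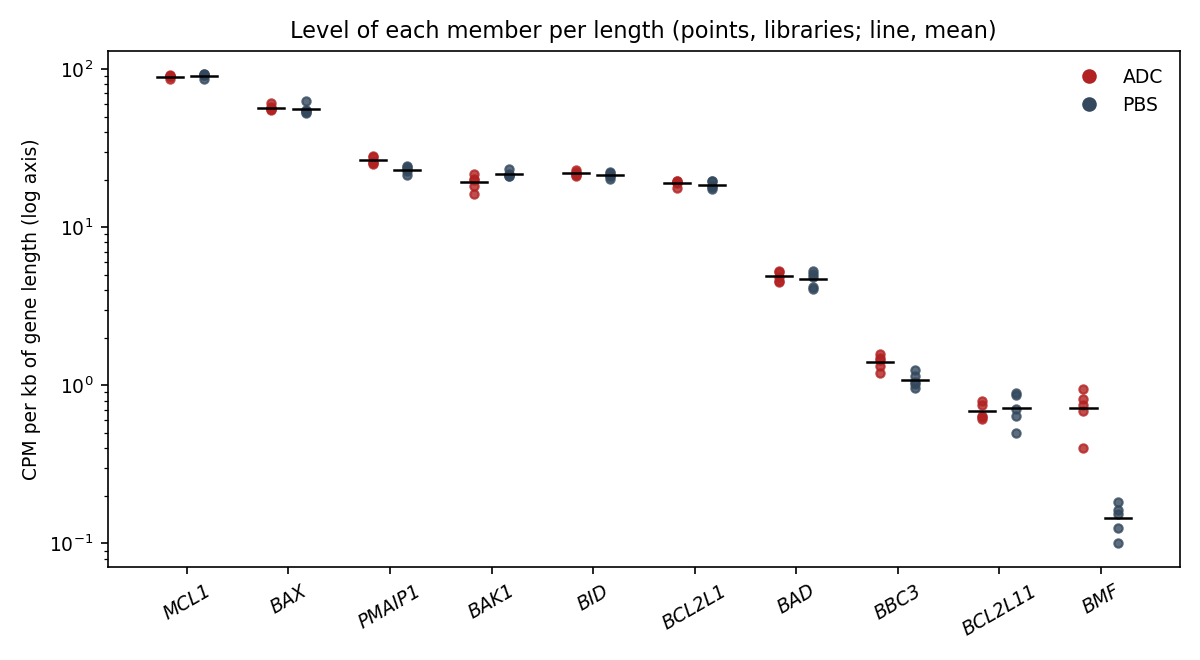
Level of each member per kb of gene length (log axis) in ADC and PBS libraries, ordered by the PBS mean; points are libraries and lines are means. MCL1 is highest near 90 CPM per kb in both groups, and BMF lies beside BCL2L11 in ADC libraries and below it in PBS libraries.

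Ratios of 8 pairs of members, taken per library on the per-length levels, are given as a description with no test. Of these, 5 set a BH3-only gene or an effector against an antiapoptotic gene. BMF over BCL2L1 was 0.0381 ± 0.0118 in ADC and 0.00783 ± 0.00177 in PBS libraries (SD, n = 5 each). BMF over MCL1 was 0.00803 ± 0.00227 in ADC and 0.00159 ± 0.00035 in PBS libraries. PMAIP1 over MCL1, the pair of NOXA and its main partner, ranged from 0.273 to 0.313 in ADC and from 0.248 to 0.261 in PBS libraries. BBC3 over BCL2L1 ranged from 0.0614 to 0.0820 in ADC and from 0.0536 to 0.0664 in PBS libraries, and BAK1 over MCL1 from 0.180 to 0.249 in ADC and from 0.227 to 0.270 in PBS libraries. These last 2 ratios overlapped between the groups and the other 3 did not. The other 3 set BMF or PMAIP1, whose own levels did not overlap between the groups, over genes that were not called. No share over other gene pairs was taken, so overlap or its absence in any of the 8 ratios has no background here. The other pairs share a role. BMF over BCL2L11 ranged from 0.534 to 1.27 in ADC and from 0.170 to 0.255 in PBS libraries, and BAK1 over BAX from 0.294 to 0.362 in ADC and from 0.372 to 0.399 in PBS libraries. BCL2L1 over MCL1 ranged from 0.197 to 0.226 in ADC and from 0.187 to 0.228 in PBS libraries, with overlap for this pair alone of the 3. Summed by role, the BH3-only members came to 56.0 ± 1.7 CPM per kb in ADC and 51.1 ± 1.5 in PBS libraries. Most of that sum was PMAIP1 (26.5 in ADC, 23.1 in PBS) and BID (21.9 in ADC, 21.3 in PBS), and BMF gave 0.719 in ADC and 0.145 in PBS libraries. The effectors came to 76.2 ± 4.1 in ADC and 77.1 ± 4.9 in PBS libraries, and the antiapoptotic members to 109 ± 2 in ADC and 109 ± 2 in PBS libraries.

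The members also differed in how far replicates scattered. MCL1 had a coefficient of variation of 2.09% in ADC and 3.06% in PBS libraries, against counting errors of 0.884% and 0.890% in those groups. BMF had 28.2% in ADC and 22.6% in PBS libraries, where counting error alone comes to 8.89% in ADC and 19.9% in PBS libraries. BCL2L11 varied by 11.9% in ADC and 22.9% in PBS libraries, against counting errors of 8.18% and 8.04% in those groups. BAK1 varied by 10.8% in ADC and 4.22% in PBS libraries. ADC replicate 1 held the highest BMF of its group and the lowest BAK1 and BCL2L1.

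**Figure D4:**
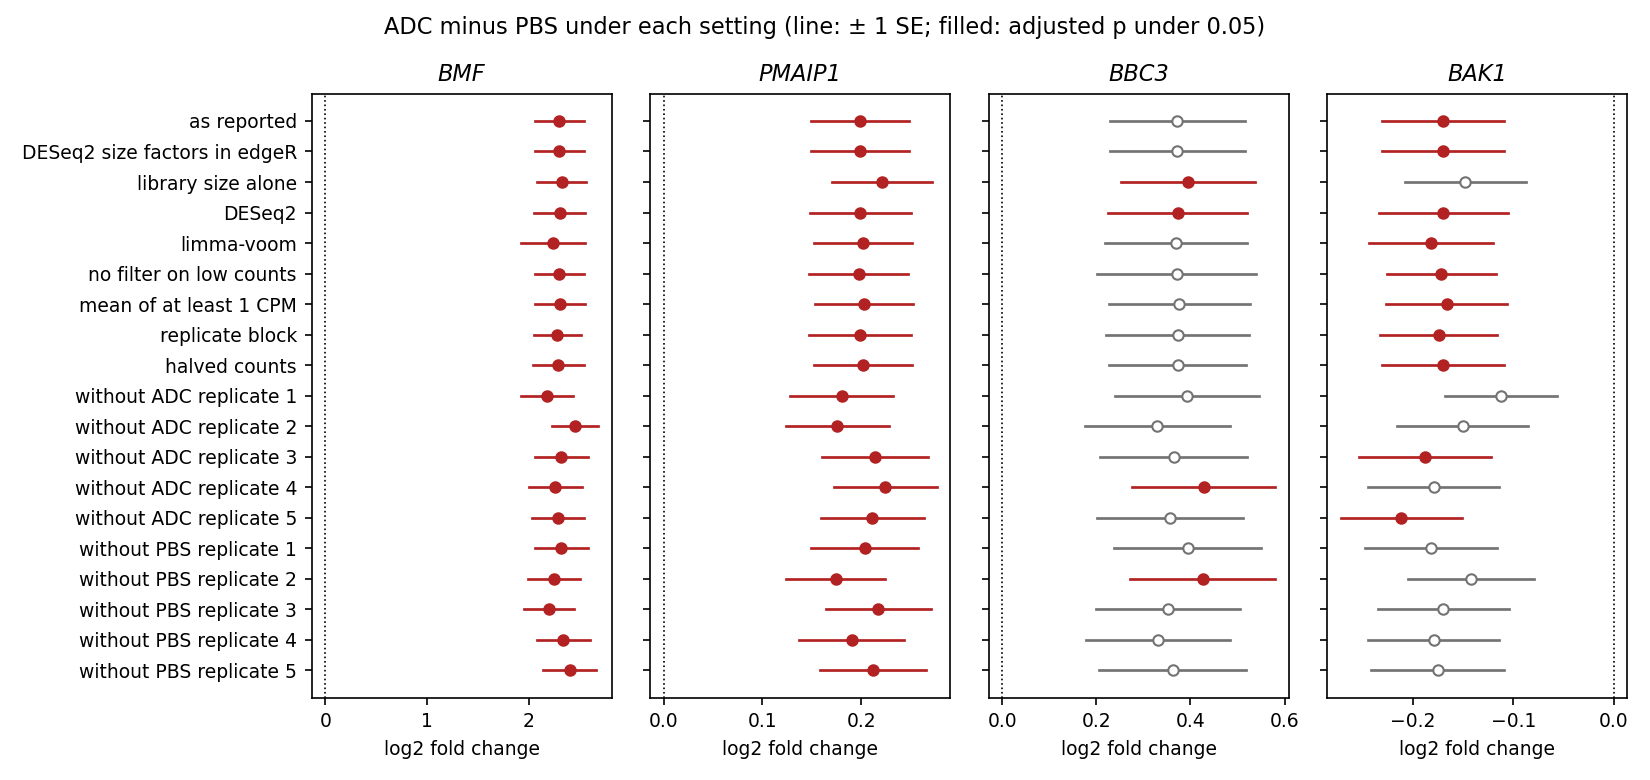
Log2 fold change, ADC minus PBS, of BMF, PMAIP1, BBC3 and BAK1 (horizontal axes, which differ in range) as reported and under 18 alternative settings; lines are ± 1 SE and filled points passed an adjusted p of 0.05. BMF and PMAIP1 pass in every setting, BBC3 in 4 of the 18 alternatives and BAK1 in 9 of them.

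The rest of the BCL2 family was measured beside these members. Of 13 further genes 8 were tested, and 2 rose, 0 fell and 6 were not called, beside 10.8% of all tested genes called higher and 10% lower. At an unadjusted p under 0.05 edgeR gave 1 lower gene, and DESeq2 and limma-voom each called 0 lower. The genes that rose were BNIP3L (log2 fold change 0.32, SE 0.05, adjusted p = 3.2e-05) and BNIP3 (0.21, SE 0.05, adjusted p = 0.0023), whose proteins are best known as mitophagy receptors induced in hypoxia. BNIP3L averaged 70.2 ± 6.6 CPM in ADC and 56.2 ± 1.8 CPM in PBS libraries, and BNIP3 averaged 109 ± 11 CPM in ADC and 94.2 ± 1.3 CPM in PBS libraries (SD, n = 5 each), with no overlap between groups for either. BCL2 itself averaged 10.6 ± 1.5 CPM in ADC and 11.6 ± 0.9 CPM in PBS libraries, a difference that did not pass (-0.13, SE 0.10, adjusted p = 0.39). Also not called were the antiapoptotic BCL2L2 (-0.05, SE 0.06) and BCL2A1 (0.11, SE 0.23), the effector relative BOK (-0.02, SE 0.05), and BCL2L12 (-0.04, SE 0.07) and BCL2L13 (-0.08, SE 0.04). BOK turned sign with scaling to library size alone (0.0018) and without PBS replicate 2 (0.019), and BCL2L12 without PBS replicate 2 (0.013). BCL2A1, a known NF-kB target, averaged 2.06 ± 0.51 CPM in ADC and 1.92 ± 0.48 CPM in PBS libraries. Other genes were near the detection limit. The BH3-only gene BIK had 0 to 14 counts in ADC and 0 to 6 in PBS libraries, and HRK, also BH3-only, had 0 to 8 in ADC and 0 to 2 in PBS libraries. BCL2L10 had 0 counts in ADC and 0 to 1 in PBS libraries, BCL2L14 had 0 to 6 in ADC and 0 to 11 in PBS libraries, and BCL2L15 had 0 to 6 in ADC and 0 to 2 in PBS libraries. None of these 5 was tested.

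**Figure D5:**
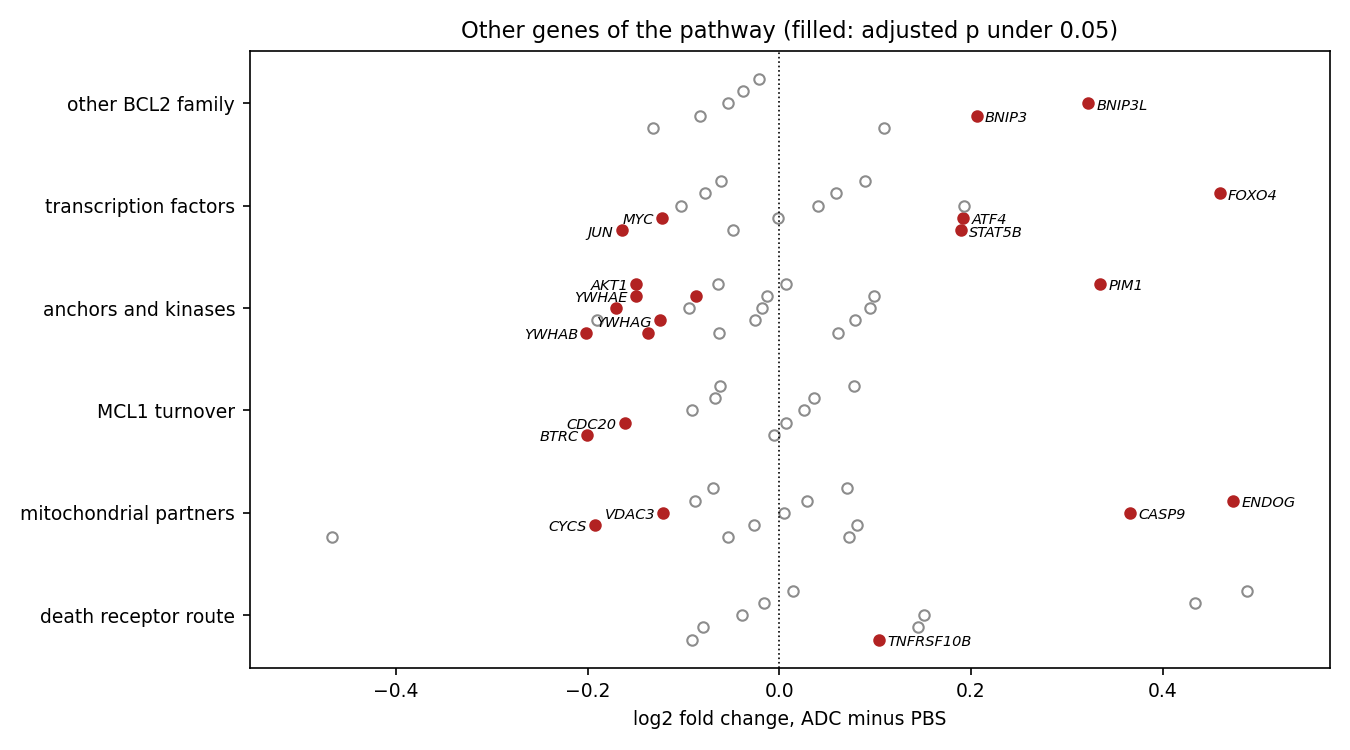
Log2 fold change, ADC minus PBS (horizontal axis), of tested genes in 6 lists of the pathway; each point is a gene, filled where the adjusted p was under 0.05, and vertical scatter within a list only separates points. The 3 called 14-3-3 genes lie left of 0 and PIM1 right of it.

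Some genes encode anchors and kinases that hold or modify BH3-only proteins. Of 20 tested, 1 rose, 7 fell and 12 were not called, where 10.8% of all tested genes were called higher and 10% lower, with a median log2 fold change of -0.06 against -0.00 over all tested genes. Among the 14-3-3 genes, whose proteins retain phosphorylated BAD in the cytosol, YWHAB fell (log2 fold change -0.20, SE 0.03, adjusted p = 3.9e-06), as did YWHAE (-0.15, SE 0.03, adjusted p = 0.00040) and YWHAG (-0.12, SE 0.03, adjusted p = 0.0018). The other tested 14-3-3 genes did not pass: YWHAH (-0.06, SE 0.04, adjusted p = 0.24), YWHAQ (-0.02, SE 0.03, adjusted p = 0.71) and YWHAZ, the most abundant by CPM (-0.03, SE 0.02, adjusted p = 0.52). YWHAB averaged 549 ± 9 CPM in ADC and 632 ± 10 CPM in PBS libraries. The kinase gene AKT1, whose product phosphorylates BAD, fell by 0.15 (SE 0.03, adjusted p = 0.0016). PIM1, another kinase known to phosphorylate BAD, rose by 0.33 (SE 0.08, adjusted p = 0.0036), at 15.8 ± 0.8 CPM in ADC and 12.6 ± 0.9 CPM in PBS libraries. AKT2 and DYNLL2 were among the other genes that fell. DYNLL2 encodes the light chain that tethers BMF, and it averaged 107 ± 2 CPM in ADC and 118 ± 2 CPM in PBS libraries (-0.14, SE 0.03, adjusted p = 0.0049), while DYNLL1, which tethers BIM, was not called (-0.06, SE 0.03, adjusted p = 0.20). DYNLL1, DYNLL2, AKT2, YWHAH, YWHAQ and YWHAZ are named outside the rule for named genes, after their values were seen.

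Of 14 tested transcription factors known to act on these genes, 3 rose, 2 fell and 9 were not called, and the shares over all tested genes were 10.8% higher and 10% lower. ATF4, the stress factor that can induce PMAIP1, rose by 0.19 (SE 0.03, adjusted p = 2.0e-05), at 308 ± 3 CPM in ADC and 270 ± 7 CPM in PBS libraries. FOXO4 rose by 0.46 (SE 0.14, adjusted p = 0.015), a call lost without PBS replicate 1 (adjusted p = 0.055), and STAT5B rose by 0.19 (SE 0.06, adjusted p = 0.014). JUN fell by 0.16 (SE 0.03, adjusted p = 0.00027) and MYC by 0.12 (SE 0.03, adjusted p = 0.0057).

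Genes that control MCL1 turnover showed 0 higher and 2 lower of 10 tested, against 10.8% higher and 10% lower over all tested genes, with 0 higher at an unadjusted p under 0.05 in edgeR and by DESeq2 and limma-voom. CDC20, the mitotic activator of the anaphase-promoting complex, fell by 0.16 (SE 0.03, adjusted p = 0.00062), and the ubiquitin ligase gene BTRC fell by 0.20 (SE 0.07, adjusted p = 0.029). BTRC was lost in 6 of 18 alternatives, at adjusted p up to 0.11.

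At the outer membrane or downstream of its pore, 2 of 14 tested entries for mitochondrial partners rose, 2 fell and 10 were not called. These counts were close to the 10.8% higher and 10% lower of all tested genes. CYCS, the gene of cytochrome c, fell by 0.19 (SE 0.03, adjusted p = 0.00011), at 361 ± 20 CPM in ADC and 412 ± 7 CPM in PBS libraries, and VDAC3, a channel of the outer membrane, fell by 0.12 (SE 0.04, adjusted p = 0.037), a call lost in 8 of 18 alternatives at adjusted p up to 0.12. CASP9, the initiator caspase that cytochrome c activates through APAF1, rose by 0.37 (SE 0.11, adjusted p = 0.014), and ENDOG, a mitochondrial nuclease, rose by 0.47 (SE 0.11, adjusted p = 0.0016). Of 10 tested genes on the death receptor route to BID, 1 rose and 0 fell (10.8% and 10% of all tested genes), with 0 lower at an unadjusted p under 0.05 in edgeR and by DESeq2 and limma-voom. That gene, the TRAIL receptor TNFRSF10B, rose by 0.10 (SE 0.04, adjusted p = 0.049), and its call was lost in 9 of 18 alternatives, at adjusted p up to 0.15.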

How the data were processed

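RNA of CH157-MN cells was poly(A)-selected and sequenced, per the labels' protocols. The deposited values are raw counts per gene for 10 libraries. The genome build hg38 and the aligners HISAT2, TopHat2 and HISAT are listed, with no step assigned, per the submitters' processing notes. How reads were counted, and with which strand setting, is not given in the sources used here. Exon overlaps came from GENCODE release 29, which holds all 58735 identifiers, and gene lengths from the deposited table. Among counts of 2 to 21, even ones made up 65.4% to 67.3% per library, against 49% to 50.6% among counts of 1000 or more. Whether fragments were counted more than once was not tested.

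Groups followed the treatment labels. Low genes were removed by filterByExpr (10 counts at minimum, 15 in total). Libraries were scaled with TMM and tested with edgeR 4.0.16 (R 4.3.3), quasi-likelihood, two-sided, with Benjamini-Hochberg adjustment at 0.05. Each SE is the size of the log2 fold change over the root of its F statistic. Library pairs within a group differed by a chi-square per degree of freedom of 5.18 to 16.5, and none was treated as a repeat. That value takes each count as a separate fragment and cannot show whether libraries came from separate cultures. The fits were tested on simulated data. There every gene had the same spread beyond counting error, so the simulation does not measure how sure single calls are. Members and lists were chosen with earlier results of these data known. Named genes are the 10 members, the further family list, and per list the 4 called genes with the smallest adjusted p in each direction. Alternatives were DESeq2 1.42.0, limma-voom 3.58.1, other scalings and filters, halved counts, a replicate block and single libraries left out. Some genes of the lists are counted but not reported here by name.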

Additional observations from a re-analysis of the deposited data

Results flagged for a closer look

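In 4 of 20 groups of 5 libraries (10 members in ADC and PBS), 1 library lay far from the rest of its group by Dixon's test at the 95% level, where chance flags about 1 group in 20. In ADC libraries, BCL2L1 was low in replicate 1, at 58.5 CPM against 63.3 CPM in the next library. The other flags fell on PBS replicate 2. It had the lowest MCL1 of its group, at 376 CPM against 398 CPM in the next PBS library, the highest BAX, at 161 CPM against 142 CPM, and the highest BAK1, at 51.3 CPM against 47.7 CPM. Without PBS replicate 2 the log2 fold change of BAK1 was -0.14 (adjusted p = 0.11 by edgeR), that of BAX 0.08 (adjusted p = 0.10) and that of MCL1 -0.04 (adjusted p = 0.42).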

How the results depend on the processing

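BMF and PMAIP1 kept direction and call under all 18 alternatives. With single libraries left out, BMF lay between 2.18 and 2.46, PMAIP1 between 0.17 and 0.22, BAK1 between -0.21 and -0.11 and BBC3 between 0.33 and 0.43. Scaled to library size alone, BAK1 (-0.15) lost its call, BBC3 (0.39) gained one, and MCL1 (0.0033) and BOK (0.0018), both near 0, turned sign; the median of all genes then moved to 0.02 and calls were 63.3% higher instead of 51.8%. With DESeq2, BBC3 (0.37) passed. With single libraries left out, BCL2L11 ranged from -0.18 to 0.013, BOK from -0.051 to 0.019 and BCL2L12 from -0.081 to 0.013. The number of members called lower was 0 with library size alone and 0 to 1 with single libraries left out. Calls for MCL1 turnover (lower) were 1 with library size alone and 1 to 3 with single libraries left out, for mitochondrial partners (lower) 1 and 1 to 2, and for the death receptor route (higher) 2 with library size alone or DESeq2, 0 with no filter on low counts and 0 to 1 with single libraries left out. The causes were not tested.

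The replicate numbers of the labels were not taken as pairs: deviations of same-numbered libraries correlated over genes at -0.0072 to 0.040. With the replicate number as a block, 3152 genes were called instead of 3018 and no member changed its call (BMF 2.28, BAK1 -0.17). With each count taken as a separate fragment, counting error alone was 8.89% for BMF in ADC and 19.9% in PBS libraries. The spreads between libraries were 28.2% in ADC and 22.6% in PBS libraries. Counting error is larger if fragments were counted more than once, so whether the PBS spread exceeds it is not shown.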
